A study of Mus musculus with 282 samples.

Results

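Ribosome biogenesis factors are the proteins that transcribe, cut, modify and fold ribosomal RNA and mount ribosomal proteins on it, and that leave before the ribosome is used. The 48 genes described here were chosen by symbol, from a list of known factors. The deposited tables list 15907 gene symbols. All 48 factors passed the filter of a mean of at least 1 RPM (reads of the gene per M reads of the library, where M stands for mega) in both tables, in which 12412 genes of the first and 12261 genes of the second passed. Every member is accounted for below: 4 act in RNA polymerase I transcription, 4 are abundant nucleolar proteins, 4 belong to box C/D and 4 to box H/ACA small nucleolar ribonucleoproteins, 14 act on the small subunit and 18 on the large subunit.

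Ribosome assembly starts in the nucleolus, where RNA polymerase I copies the ribosomal DNA into a long precursor. Box C/D particles methylate that RNA and box H/ACA particles change uridine to pseudouridine, each led to its site by a guide RNA. The small subunit processome and the large subunit factors then cut and fold the precursor into the subunits. Liver cells make ribosomes in step with feeding, and the kinase mTOR, which senses nutrients and growth signals, is a known regulator of this process and of RNA polymerase I.

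The study sequenced the 3′ ends of liver mRNA from individually housed male C57BL/6J mice kept in 12 h of light and 12 h of dark, at zeitgeber times (ZT, hours after light on). The first deposited table has 13 arms that had 3 livers at each of ZT 2, 6, 10, 14, 18 and 22, and in the second the 3 tunicamycin arms had 4 livers at each of ZT 4, 10, 16 and 22. The labels call the replicates biological. The title places the question in what mTOR signalling adds to rhythms that come from the whole animal and not from the local clock.

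The wildtype (WT) arms without tunicamycin were night-fed and not injected, fed ad libitum, fed arrhythmically, night-fed with vehicle, night-fed with rapamycin, arrhythmically fed with AZD8055 at dawn, and arrhythmically fed with AZD8055 at dusk. Rapamycin and AZD8055 inhibit mTOR, and AZD8055 blocks its kinase site directly. The whole-body Bmal1 knockout (BMKO), which lacks a core clock factor, was night-fed with no injection, with vehicle or with rapamycin. The liver Tsc1 knockout (TSKO) lacks a brake on mTOR complex activity and the liver Raptor knockout (RPKO) lacks a subunit of the first mTOR complex. Both were night-fed and were compared with night-fed Albumin-Cre mice. The albumin promoter drives Cre in hepatocytes, and liver cells in which Cre has not acted keep the gene. The tunicamycin arms, all WT, were night-fed, arrhythmically fed, and arrhythmically fed with AZD8055 at dusk; tunicamycin blocks protein glycosylation in the endoplasmic reticulum. No dose or animal age is in the labels, and the arrhythmically fed control of the AZD8055 arms was not injected.

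Sequences upstream of the members come first because several factors of this family are known targets of MYC, which binds the letters CACGTG, the core of the E-box that clock factors also bind. RefSeq promoters (GRCm38.p6, 250 bases before to 50 after the gene start) were found for 42 of 48 members. CACGTG, which reads the same on both strands, was in the 250 bases before the start of 3 of 42 members (7.14%), beside 8.63% of the promoters of genes tested in the first table and 6.05% of all promoters. In all 300 bases, a window taken after the narrower one had been seen, it was in 8 of 42 (19.0%), 10.4% and 7.24%. The windows of 60 bases shown hold the motif, in capitals, in factors of polymerase I transcription and of both subunits, with the strand of the gene; no promoter found for a box C/D or box H/ACA member had it.
Rrn3, polymerase I initiation factor, chr16:13780624-13780683, plus strand: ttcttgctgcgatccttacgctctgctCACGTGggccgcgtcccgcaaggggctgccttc
Imp4, small subunit processome, chr1:34439681-34439740, plus strand: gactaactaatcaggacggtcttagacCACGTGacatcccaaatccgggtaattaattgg
Wdr43, small subunit processome, chr17:71616180-71616239, plus strand: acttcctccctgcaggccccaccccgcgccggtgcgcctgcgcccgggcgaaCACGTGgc
Nop2, large subunit, chr6:125131796-125131855, plus strand: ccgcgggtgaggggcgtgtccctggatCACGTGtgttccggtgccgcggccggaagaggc
Pes1, large subunit, chr11:3963940-3963999, plus strand: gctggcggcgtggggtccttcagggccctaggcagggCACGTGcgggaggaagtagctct

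The motif lay 48 bases before the start in Rrn3, 121 before it in Imp4 and 60 before it in Nop2, and 3 bases after it in Pes1 and 18 after it in Wdr43. In the other motifs looked at, searched on both strands of the same 250 bases, TTCCGG was in 35.7% of member promoters and 23.1% of those of tested genes, and GCGCGC in 4.76% and 20.6%. CCCGCG was in 23.8% and 26.4%, CGCGAG in 21.4% and 17.6%, CCAAT in 26.2% and 36.7%, and CATGCGCA in 2.38% and 3.43%. The palindromic NRF1 site and the palindromic CGCG element, which share letters with GCGCGC and CGCGAG, were in 0 of 42 member promoters, beside 1.72% and 0.942%. These 9 searches describe letters only.

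Libraries held 0.706 to 14.3 M reads. The shallowest, night-fed WT with rapamycin at ZT 22, replicate 1, had 0.706 M reads, and 3 libraries were under 3 M. The others under 3 M were uninjected BMKO at ZT 6, replicate 1 (2.81 M), and at ZT 22, replicate 3 (2.18 M). The median correlation of a library with the rest of its group was 0.978 in the first table. Of its 12 lowest libraries, at 0.866 to 0.951, 8 came from injected night-fed arms, and 7 of those were replicate 1. Daily mean counts for the injected night-fed arms are therefore given with and without that replicate. Uninjected BMKO held the lowest library, replicate 1 at ZT 6 (0.866), and also replicate 3 at ZT 6 (0.942) and at ZT 22 (0.944). In the ad libitum arm, replicate 3 had a Dbp level of 53.6 RPM at ZT 10 and 112 RPM at ZT 14, where the other replicates had 122 and 131 RPM, then 25.8 and 38.2 RPM. In the night-fed tunicamycin arm, replicate 2 at ZT 16 had Ddit3 at 468 RPM, where the others had 1363 to 1719 RPM. Tsc1 was at a mean of 7.24 RPM in TSKO and 14.6 RPM in Albumin-Cre livers. Rptor was also lower in RPKO than in Albumin-Cre livers (5.1 and 8.9 RPM). Neither transcript was absent, and the ranges overlapped. Tsc1 ran from 3.72 to 11.2 RPM in TSKO and from 9.33 to 22.6 RPM in Albumin-Cre. Rptor ran from 2.67 to 9.47 RPM in RPKO and from 6.73 to 11.6 RPM in Albumin-Cre. The 3′ tag of Arntl, the gene deleted in BMKO, averaged 10.4 RPM in BMKO and 13 RPM in WT, uninjected; a tag outside the deleted bases checks nothing. Hepatocyte markers dominated in every arm, with a median summed level of 76994 RPM over 8 genes in night-fed WT. It was 80146 RPM in WT with vehicle and 61447 RPM in WT with rapamycin. In BMKO it was 58983 RPM uninjected, 42364 RPM with vehicle and 38210 RPM with rapamycin. The tunicamycin arms had 53695 to 56399 RPM. In these bulk samples fewer cells of a type and less RNA per cell cannot be told apart.

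Members spanned a wide range of tag levels. On the RPM scale, which counts 1 read per transcript end and is not divided by length, Ncl (nucleolin, an RNA-binding histone chaperone) was the highest at a mean of 222 RPM over the first table. The other nucleolar proteins reached down to Nolc1 (a scaffold that binds both small nucleolar particle classes) at 23.1 RPM, below several members of other roles. In RNA polymerase I transcription the range was from Mybbp1a, a nucleolar regulator, at 21.4 RPM to Polr1b, the second largest subunit of the enzyme, at 5.2 RPM. Box C/D members ranged from Nop58, a core protein, at 31.6 RPM to Rrp9, which binds the processing RNA of the small subunit processome, at 3.4 RPM. Box H/ACA members ranged from Nop10 at 97.7 RPM to Gar1 at 7.7 RPM, both core proteins. Small subunit factors ranged from Imp3 at 62.4 RPM to Nob1, the nuclease of the last cut, at 2.9 RPM, and large subunit factors from the helicase Ddx21 at 47.0 RPM to Noc3l at 4.5 RPM.

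In night-fed, uninjected WT livers 19 of the 48 factors passed as rhythmic, and most of these 19 peaked in the first part of the night. The mean over the 48 members of log2(RPM + 0.5) was lowest at ZT 2 (3.54 to 3.65 in 3 libraries) and highest at ZT 14 (3.95 to 4.15), and the libraries of these times did not overlap. A 24 h cosine fitted with limma called 19 of 48 members rhythmic at an adjusted p under 0.05, beside 21.8% of all genes tested. The median amplitude, on the log2 scale from mean to peak, was 0.26 for the members and 0.22 for all genes. The count was 7 without replicate 2 and at most 15 when either of the other replicate numbers was left out.

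**Figure D1:**
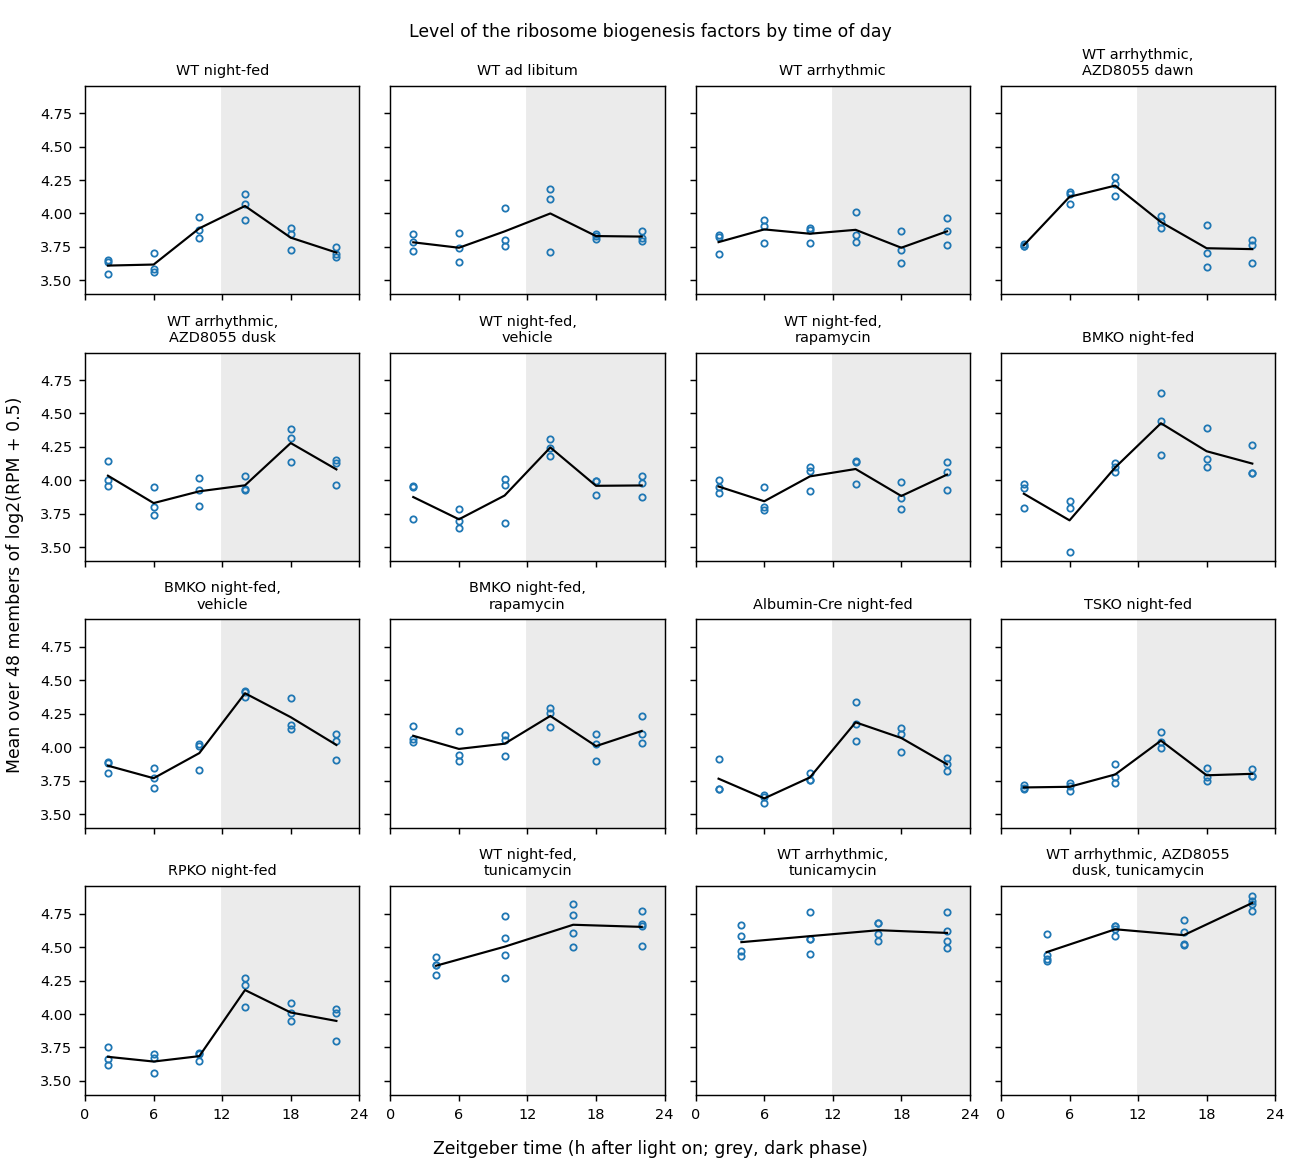
Mean over the 48 members of log2(RPM + 0.5) against zeitgeber time in hours, by arm; points are libraries, lines the means of a time, and grey the dark phase. Night-fed WT libraries reach 3.95 to 4.15 at ZT 14, and arrhythmically fed ones stay between 3.63 and 4.01 at all times.

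Nolc1 (chr19:46075863-46085530, plus strand) had the largest amplitude among them, 0.79 ± 0.09 (SE, n = 18), with a peak at ZT 15.0 (adjusted p = 1.6e-05). Its levels were 13.8, 13.5 and 8.01 RPM at ZT 6 and 33.7, 37.5 and 32.2 RPM at ZT 14. Every ZT 14 library was above every ZT 6 library.

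Tsr1 (chr11:74898071-74909342, plus strand), a GTPase-like factor of late small subunit precursors, had an amplitude of 0.63 ± 0.11 and a peak at ZT 14.6. It stood at 13.5, 10.5 and 6.37 RPM at ZT 6 and at 25.1, 31.6 and 25 RPM at ZT 14. These 2 times did not overlap. Reads of Tsr1 may include Srr, which lies on the other strand over its last exon bases.

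The core proteins Nop58 (chr1:59684971-59719044, plus strand) and Nop56 (chr2:130274430-130279313, plus strand) had close peak times. Nop58 had an amplitude of 0.58 ± 0.09 and a peak at ZT 15.3, and its 3 libraries were at 16.5 to 17.8 RPM at ZT 2 and at 36.2 to 46.7 RPM at ZT 14. Nop56 had 0.55 ± 0.09 and ZT 15.4, with 4.74 to 5.97 RPM at ZT 6 and 14 to 17.6 RPM at ZT 14. In neither gene did these times overlap. The third box C/D member that passed, Rrp9, peaked earlier, at ZT 8.7 (amplitude 0.52 ± 0.14, adjusted p = 0.033), while the methyltransferase Fbl was not called.

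Rrp12, which helps export small subunit precursors, had an amplitude of 0.55 ± 0.14 at a low level, with 0.629, 1.11 and 3.11 RPM at ZT 6 and 3.31, 4.67 and 3.93 RPM at ZT 14. Rrs1 (chr1:9545408-9547455, plus strand), which brings the 5S RNA particle to the large subunit, had 0.51 ± 0.09 and a peak at ZT 15.4, from 18 to 29.0 RPM at ZT 2 to 44.6 to 52.3 RPM at ZT 14. Surf6, a nucleolar protein of large subunit assembly, had 0.53 ± 0.11 and peaked at ZT 11.9.

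By role, 4 of 4 abundant nucleolar proteins, 3 of 4 box C/D members, 2 of 4 transcription factors and subunits, 4 of 14 small subunit factors and 6 of 18 large subunit factors were rhythmic. The 4 box H/ACA members did not pass. The abundant proteins split in time: Npm1 (nucleophosmin, a chaperone) peaked at ZT 11.5 and Gnl3 (nucleostemin, a GTPase) at ZT 11.7, before Nolc1. Gnl3 (chr14:31012433-31019152, minus strand) was at 23.3, 29.0 and 29.5 RPM at ZT 2 and at 49.8, 62.8 and 46.4 RPM at ZT 14. Of the 19 rhythmic members, 12 peaked between ZT 12 and ZT 18, 6 between ZT 6 and ZT 12, and 1 later. The peak times of all rhythmic genes were not computed.

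Other night-fed mice also had rhythmic members. Albumin-Cre livers had 25 rhythmic members (background 23.2%), of which 17 were also rhythmic in uninjected WT, that is 89.5% of the 19 and 68.0% of the 25. Nolc1 had an amplitude of 0.82 ± 0.09 there and peaked at ZT 17.2. Over the 17 shared members the peak was later in Albumin-Cre livers by a mean of 1.73 h. Vehicle-injected WT had 13 rhythmic members (background 14.9%), 11 of them shared with uninjected WT, and 3 when each replicate number was left out in turn. Among the 8 night-fed arms without an mTOR inhibitor, Nolc1 and Tsr1 were rhythmic in all 8 and Bysl, a small subunit factor, in 7. In all, 11 members were rhythmic in at least 6 of these arms and 13 in none. The share of all genes that reached such counts was not computed.

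**Figure D2:**
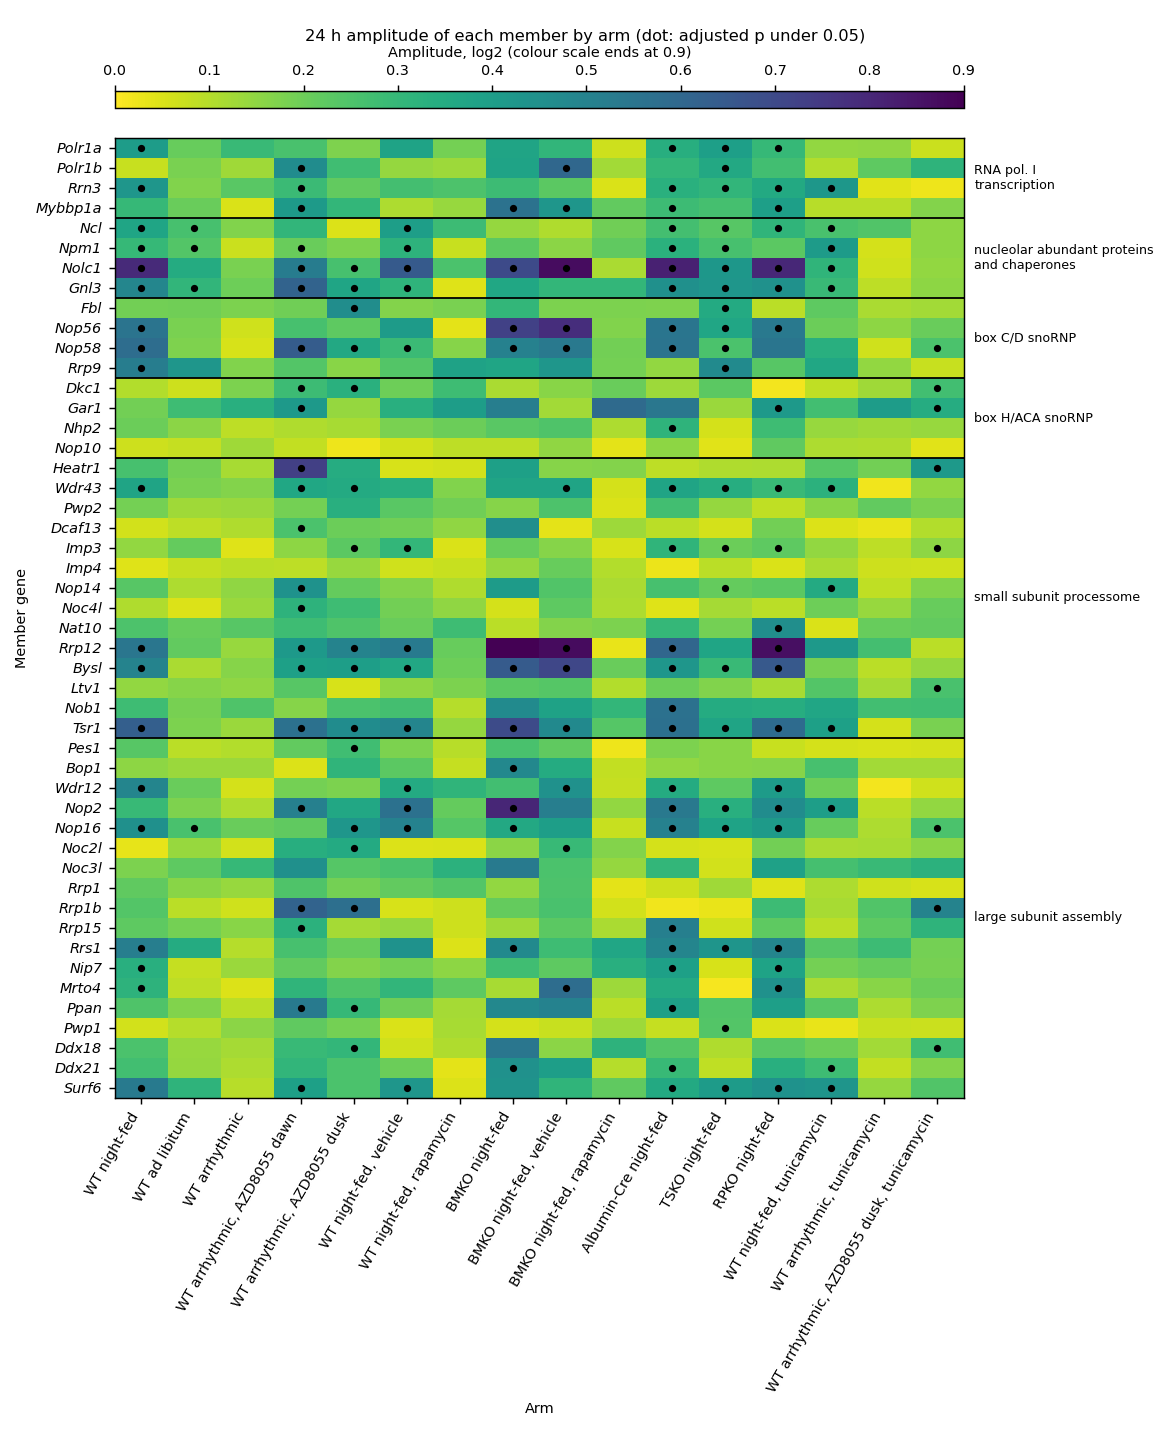
The 24 h amplitude (log2) of each of the 48 members, in rows ordered by role, in each of the 16 arms, in columns; dark colours are large amplitudes and a dot marks an adjusted p under 0.05. Nolc1 and Tsr1 carry dots in 10 arms each, and the columns for rapamycin and for arrhythmic feeding without AZD8055 have none.

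Under arrhythmic feeding no cycle of these factors passed the test. In arrhythmically fed WT, 0 of 48 members were rhythmic by limma (background 7.95%), 5 had an unadjusted p under 0.05, and edgeR's quasi-likelihood test called 0. The median amplitude was 0.14 for the members and 0.15 for all genes. Between arrhythmic and night feeding the rhythm itself differed in 5 members, beside 4.66% of genes (4.35% with a smaller amplitude): Wdr12, Bysl, Nop56, Gnl3 and Nop58. All 5 had the smaller amplitude under arrhythmic feeding, as did 37 of 48 members whether called or not. The share of all genes with a smaller amplitude was not computed. Their median amplitude was also smaller than under night feeding. Leaving out each replicate number in turn gave 1 to 3 calls.

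Wdr12, which forms a complex with Pes1 and Bop1 in large subunit processing, had an amplitude of 0.06 under arrhythmic and 0.49 under night feeding (adjusted p = 0.00054). Its night-fed levels ran from 12.4, 17.3 and 13.1 RPM at ZT 6 to 27.6, 28.9 and 29.1 RPM at ZT 14. The arrhythmic levels were 16.7, 20.8 and 20.6 RPM at ZT 6 and 15.9, 22 and 18.7 RPM at ZT 14, which overlap. Bysl had 0.16 against 0.50 (adjusted p = 0.011), Nop56 had 0.06 against 0.55 (adjusted p = 0.032), Gnl3 had 0.20 against 0.49 and Nop58 had 0.06 against 0.58.

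The daily mean is the average of log2(RPM + 0.5) over the times of an arm, and its differences are given on that log2 scale with their SE; the added 0.5 RPM understates changes of low genes. Under arrhythmic feeding 14 members had a higher and 8 a lower daily mean than under night feeding (background 24.0% and 20%); without replicate 3 the counts were 11 and 5. Ncl (chr1:86344719-86359400, minus strand) rose by 0.45 ± 0.05 (adjusted p = 1.2e-09), from a lowest, median and highest library of 115, 156 and 222 RPM to 165, 224 and 305 RPM. The ranges over all times overlap. Ddx21 (chr10:62580251-62602281, minus strand), a helicase active on both polymerase I genes and early precursors, rose by 0.57 ± 0.08, from 22.4, 26.0 and 39.9 RPM to 31.2, 44.7 and 55.2 RPM. The pseudouridine synthase Dkc1 rose by 0.40 ± 0.06 and Pwp1, which acts in ribosomal RNA transcription and processing, by 0.44 ± 0.07. Among the lower members Rrs1 fell by 0.55 on the log2 scale, from 18, 33.5 and 52.8 RPM to 17.3, 24.0 and 29.8 RPM. Imp3 fell by 0.35, Nop10 by 0.35 and Fbl by 0.44. The night-fed libraries were shallower, at a median of 5.76 M reads beside 8.74 M (arrhythmic) and 9.61 M (ad libitum). Against these night-fed libraries Ncl and Ddx21 were also higher, and Rrs1 lower, in vehicle-injected WT, which was night-fed too. In this and the ad libitum comparison, feeding cannot be told apart from whatever else differed between the libraries.

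Ad libitum feeding, compared with the same night-fed libraries, gave 15 higher and 11 lower members (background 28.6% and 24.4%), and the lower count was 7 without replicate 2 and 6 without replicate 3. Ncl rose by 0.55 ± 0.05 and Ddx21 by 0.75 ± 0.08, to 37.7, 49.7 and 70.0 RPM. Fbl fell by 0.67, from 3.18, 5.49 and 6.88 RPM to 2.13, 2.93 and 5.58 RPM, and Imp3 by 0.43. Only 4 members, Ncl, Npm1, Gnl3 and Nop16, were rhythmic there (background 16.5%), and 13 were without replicate 3 at ZT 10 and ZT 14. The rhythm differed from that under night feeding in 0 members by limma and by edgeR, with 7 at an unadjusted p under 0.05 (background 0.854%).

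**Figure D3:**
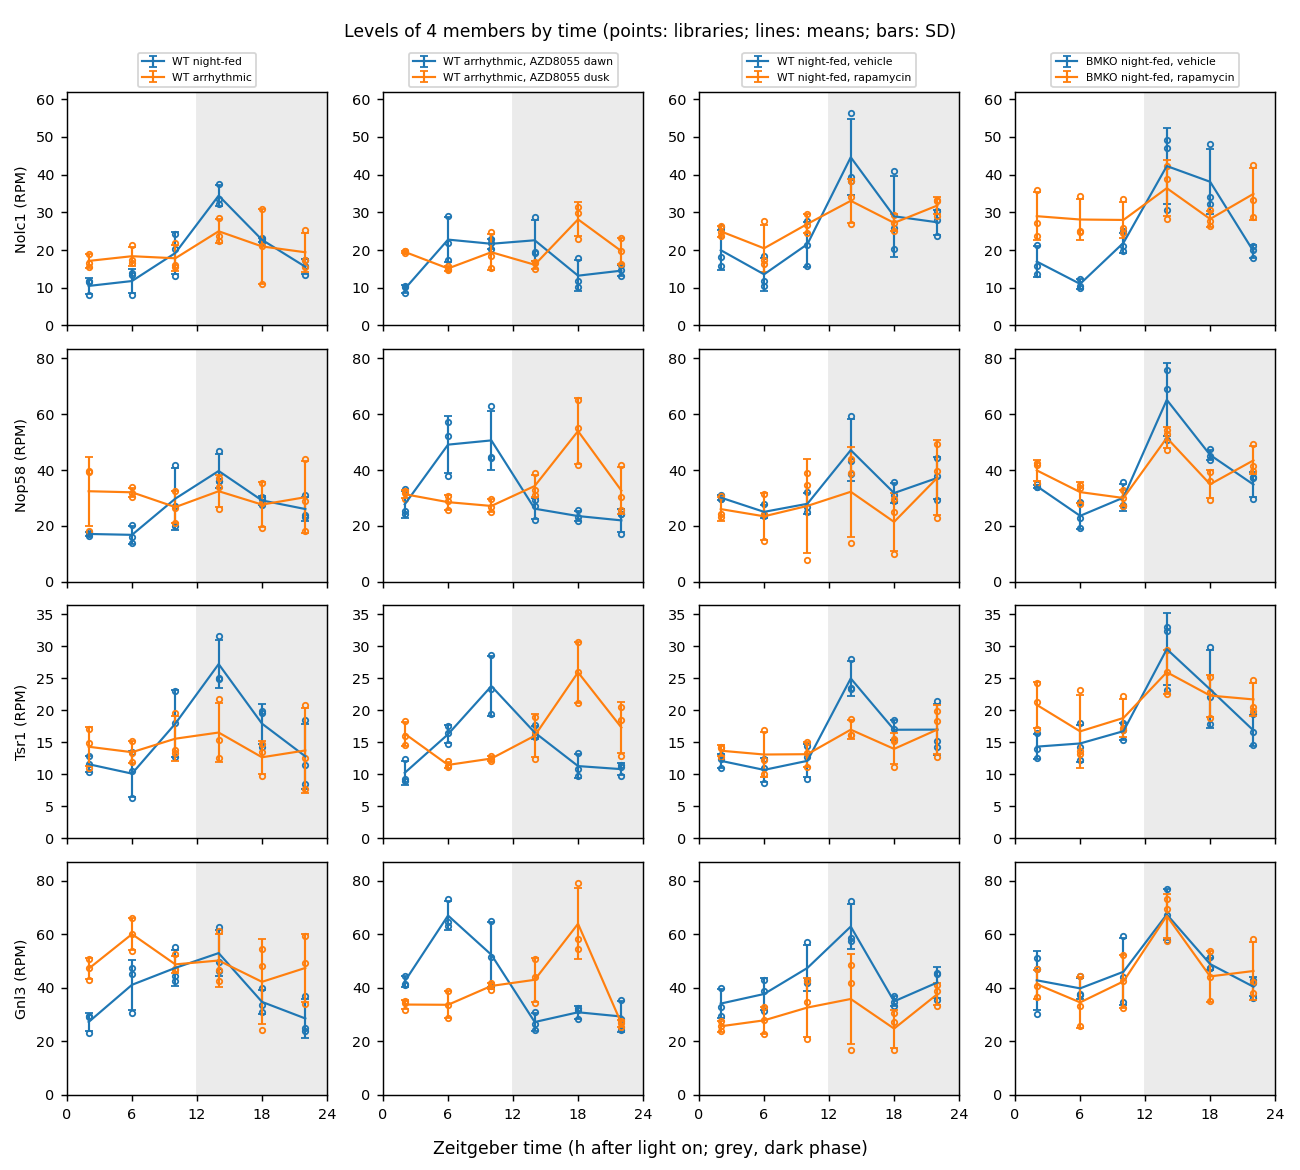
Levels in RPM of Nolc1, Nop58, Tsr1 and Gnl3 against zeitgeber time in hours in 4 pairs of arms; points are libraries, lines the means, bars the SD and grey the dark phase. Nolc1 reaches 32.2 to 37.5 RPM at ZT 14 in night-fed WT, and in BMKO with rapamycin its ZT 6 and ZT 14 libraries overlap.

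Night-fed livers without Bmal1 also had rhythmic factors. BMKO livers had 11 rhythmic members without injection (background 5.6%) and 12 with vehicle (background 5.49%), with median amplitudes of 0.37 and 0.26 beside 0.24 and 0.19 for all genes. Their rhythmic members peaked at a mean of ZT 16.9 and ZT 16.6. With vehicle, Nolc1 was at 10.04, 12.4 and 10.6 RPM at ZT 6 and at 30.7, 47.0 and 49.1 RPM at ZT 14, and Nop58 was at 22.8, 28.8 and 19.3 RPM and then 50.6, 75.8 and 69.0 RPM. The times did not overlap in either gene. Leaving out each replicate number in turn gave 0 to 5 rhythmic members without injection and 0 to 21 with vehicle. Without the libraries under 3 M reads the uninjected count was 15.

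The rhythm differed between BMKO and WT in 1 member without injection (background 3.07%): Rrp9 had an amplitude of 0.37 with a peak at ZT 16.2 in BMKO and 0.52 with a peak at ZT 8.7 in WT (adjusted p = 0.016, and 0.165 without replicate 1). With vehicle it differed in 0 members by limma and by edgeR, with 6 at an unadjusted p under 0.05 (background 1.75%). The interval of these differences was not computed, and a missed threshold does not show that the rhythms are alike.

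The daily means of BMKO and WT livers differed in more members without injection than with vehicle, as they did over all genes. Without injection 27 members were higher and 10 lower in BMKO than in WT (background 34.3% and 37.4%), and 27 and 6 without replicate 2. Leaving out the libraries under 3 M reads gave 27 and 9. Mrto4 (chr4:139347435-139352576, minus strand), which prepares the ribosomal stalk site, rose by 1.38 ± 0.11 (adjusted p = 2.7e-18), from 5.55, 10.5 and 14.2 RPM to 15.9, 27.9 and 49.6 RPM. Every BMKO library was above every WT library. Noc2l rose by 1.07 ± 0.08, from 7.70, 9.89 and 12.0 RPM to 17.1, 21.5 and 29.8 RPM, also with no overlap. Mybbp1a rose by 1.14 ± 0.09 and Rrp1b by 1.09 ± 0.09.

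Npm1 (chr11:33152287-33163206, minus strand) fell by 0.93 on the log2 scale, from 89.9, 117 and 160 RPM to 25.3, 69.7 and 88.5 RPM, and the ranges did not overlap. Ltv1, a late small subunit factor, fell by 1.24, from 7.02, 11.7 and 17.6 RPM to 2.15, 4.66 and 10.9 RPM. Rrs1 fell by 0.74 and Dcaf13, a processome member, by 0.88.

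With vehicle in both genotypes, 6 members were higher and 0 lower in BMKO (background 9.93% and 11.8%; 12 members had an unadjusted p under 0.05, and edgeR called 7 higher and 0 lower). Without replicate 1 there were 9 higher and 2 lower, without replicate 2 there were 4 and 1, and without replicate 3 there were 1 and 0. Nat10, the acetyltransferase of small subunit RNA, rose by 0.62 ± 0.12, from 3.56, 5.53 and 9.29 RPM to 4.27, 10.01 and 14.7 RPM. Polr1b rose by 0.53 ± 0.14, Nhp2 by 0.36 ± 0.10 and Npm1 by 0.32 ± 0.11. Npm1 was thus called lower in one BMKO comparison and higher in the other. Mrto4 was at a mean of 12.8 RPM in vehicle WT and 12.7 RPM in vehicle BMKO. Under the library scaling that the authors deposited, 41 members were higher in the vehicle comparison; that scaling put the median of all genes 0.31 higher. Markers of other liver cells also differed: the median summed level of 8 endothelial markers was 160 RPM in uninjected BMKO (80.3 to 184 RPM), 255 RPM in uninjected WT (195 to 291 RPM) and 221 RPM in vehicle BMKO. Summed over the 5 listed cholangiocyte markers in the table it was 59.6, 22.3 and 54.7 RPM. Summed over 8 hepatocyte markers the median was 58983 RPM in uninjected BMKO and 76994 RPM in uninjected WT. With vehicle it was 42364 RPM in BMKO and 80146 RPM in WT. The part of these markers in the result was not tested.

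**Figure D4:**
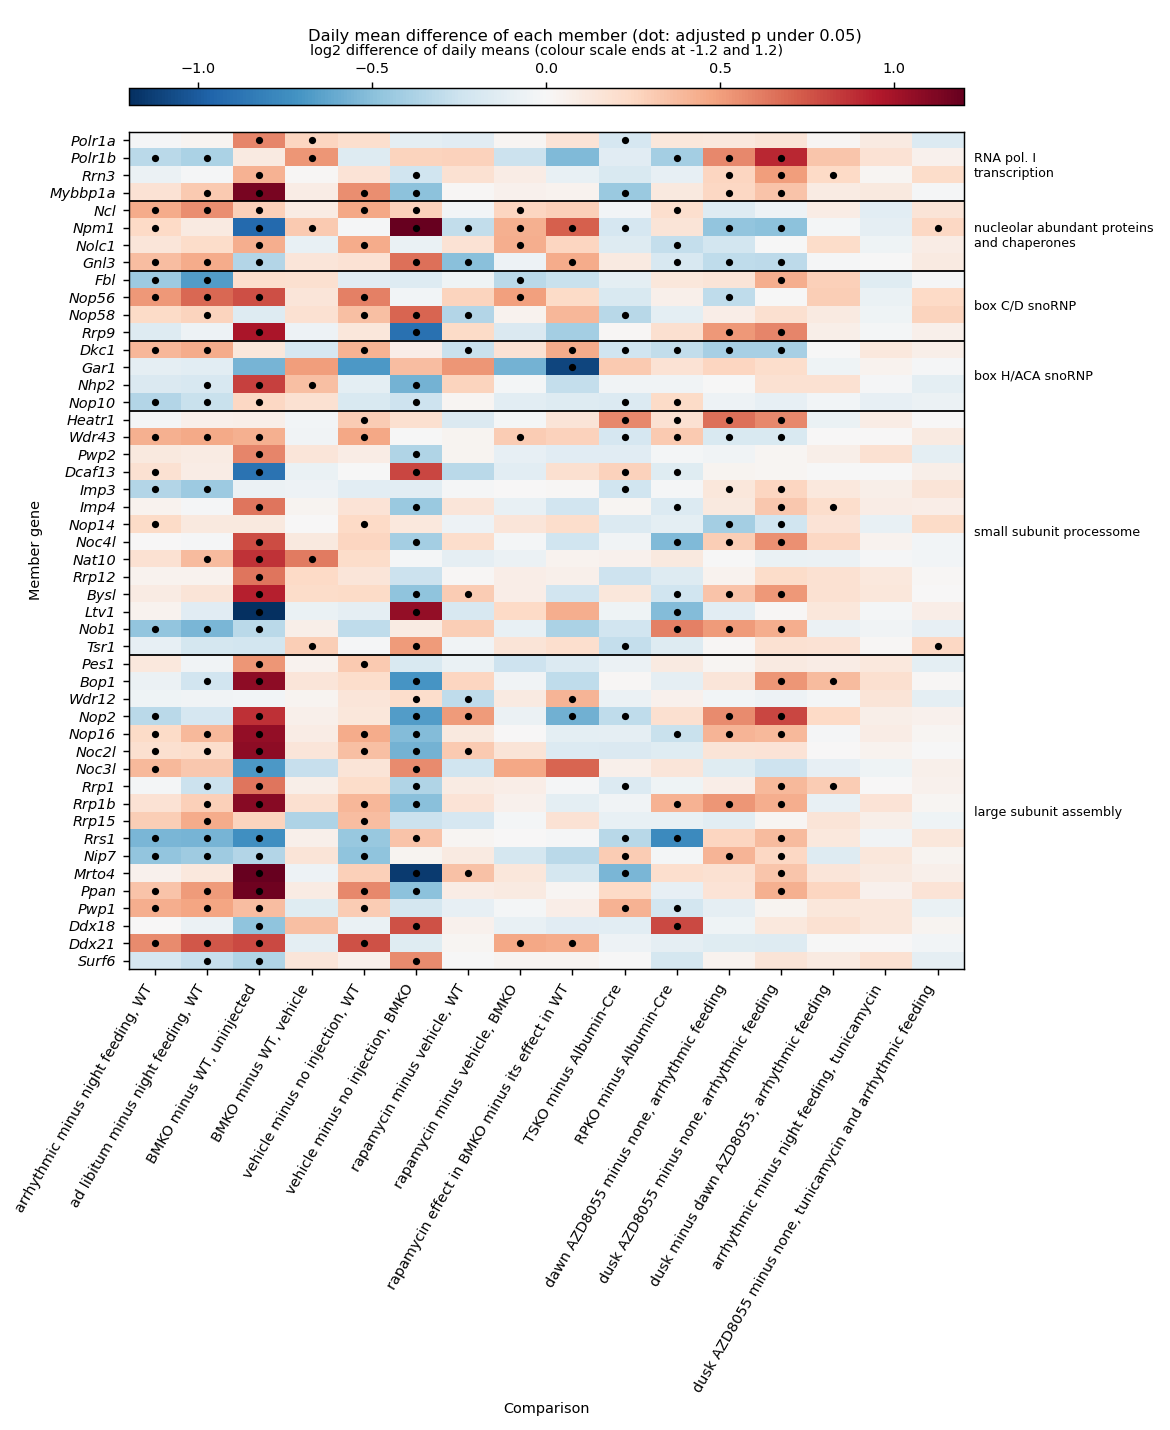
Difference of daily means (log2) of each of the 48 members, in rows ordered by role, in each of the 16 comparisons, in columns; red is higher in the first-named group, blue lower, and a dot marks an adjusted p under 0.05. The uninjected BMKO column has 27 higher and 10 lower members, and the comparison of feeding under tunicamycin has none.

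Vehicle-injected and uninjected livers differed in many members, and in many of all genes tested. Against uninjected WT, 17 members were higher and 2 lower in vehicle WT (background 15.4% and 11.8%), a split of 13 to 4 under median-of-ratios scaling and of 11 to 7 under the deposited scaling. Without replicate 1 the counts were 14 and 2, and without replicate 2 they were 10 and 2. Ddx21 rose by 0.76 ± 0.10, to 31.8, 51.6 and 92.1 RPM, Mybbp1a by 0.55 ± 0.09, Ncl by 0.46 ± 0.09 and Nop56 by 0.60 ± 0.11. Nip7, a large subunit factor, fell by 0.48 and Rrs1 by 0.46. In BMKO, 12 were higher and 17 lower with vehicle (background 31.3% and 29.1%), against 21 and 9 under the deposited scaling, which moved the median of all genes by 0.31, and 13 and 22 without replicate 1. The rhythm differed in 0 members in either genotype by limma and by edgeR, with 0 in WT and 2 in BMKO at an unadjusted p under 0.05 (background 0.0% in both). These comparisons share the uninjected and vehicle libraries with the ones above, and injection cannot be told apart from whatever else differed between the injected and uninjected sets.

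With rapamycin no member passed as rhythmic. In WT with rapamycin 0 of 48 were called by limma and by edgeR (background 5.09%; 2 at an unadjusted p under 0.05), and in BMKO with rapamycin 0 of 48 by both (background 0.274%; 7 unadjusted). The median amplitude of the members was 0.15 in WT, beside 0.23 with vehicle, and 0.13 in BMKO, beside 0.26 with vehicle; for all genes it was 0.20 and 0.22, then 0.15 and 0.19. Without replicate 1 the count was 1 in WT and 0 in BMKO.

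Tested directly, the rhythm differed between rapamycin and vehicle in 3 members in BMKO (background 0.29%): Nolc1, Nop56 and Mybbp1a. Nolc1 had an amplitude of 0.11 with rapamycin and 0.87 with vehicle (adjusted p = 0.0094). With rapamycin it was at 34.4, 25 and 24.9 RPM at ZT 6 and at 28.1, 42.3 and 38.8 RPM at ZT 14, which overlap, where the vehicle libraries had not. Nop56 had 0.17 against 0.78 (adjusted p = 0.029), with 21.9, 16.7 and 17.1 RPM at ZT 6 and 22.4, 21.3 and 19.2 RPM at ZT 14 under rapamycin and 5.08, 9.53 and 7.02 RPM, then 22.7, 25.3 and 28.3 RPM, under vehicle. The rapamycin libraries at ZT 6 were all above the vehicle ones. Mybbp1a had 0.22 against 0.43 (adjusted p = 0.044). The 3 calls fell to 0 without replicate 1 and without replicate 3.

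In WT the rhythm differed between rapamycin and vehicle in 0 members by limma and by edgeR (background 0.0%; 5 at an unadjusted p under 0.05). Nolc1 was at 16.4, 17.3 and 27.7 RPM at ZT 6 and 26.8, 34.0 and 38.4 RPM at ZT 14 with rapamycin, and at 18.5, 10.3 and 11.8 RPM, then 56.2, 38.3 and 39.3 RPM, with vehicle. Whether the effect on the rhythm differed between genotypes was tested too, and 0 members passed by limma and by edgeR, with 3 at an unadjusted p under 0.05 (background 0.0%).

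Between rapamycin and vehicle a few members differed in daily mean, and the calls changed without replicate 1. In WT 4 members were higher and 5 lower (background 9.76% and 8.73%): Noc2l rose by 0.32 ± 0.08, Nop2 (a methyltransferase of large subunit RNA) by 0.51 ± 0.13, Mrto4 by 0.35 ± 0.11 and Bysl by 0.31 ± 0.10, while Gnl3 fell by 0.50, Wdr12 by 0.30, Dkc1 by 0.27 and Nop58 by 0.35. The fifth lower member was Npm1, which fell by 0.29, with 87.6, 114 and 178 RPM under vehicle and 44.5, 108 and 141 RPM under rapamycin. Its 3 lowest rapamycin libraries, at 44.5, 56.4 and 51.6 RPM, were replicate 1 at ZT 10, 14 and 18. Gnl3 ran from 29.6, 41.0 and 72.4 RPM to 16.8, 29.2 and 48.7 RPM, and Nop58 with rapamycin at ZT 14 was at 13.9, 43.9 and 38.9 RPM, the first of these in replicate 1. Without replicate 1 the count was 8 higher and 0 lower, and without replicate 3 it was 0 higher and 5 lower.

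In BMKO 6 members were higher and 1 lower with rapamycin (background 6.32% and 5.54%). Ddx21 rose by 0.46 ± 0.10, from 29.5, 42.9 and 87.3 RPM to 43.9, 63.4 and 80.3 RPM. Nolc1 rose by 0.43 ± 0.10, Nop56 by 0.49 ± 0.11 and Npm1 by 0.42 ± 0.11, and Fbl fell by 0.32. Without replicate 1 the count was 2 higher and 0 lower. The effect of rapamycin differed between BMKO and WT in 7 members (background 7.85% higher and 6.38% lower): it was more positive in BMKO for Npm1, Dkc1, Wdr12, Ddx21 and Gnl3, and more negative for Nop2 and Gar1. Median-of-ratios scaling and the deposited scaling each gave 5 and 1. Without replicate 1 no member passed in limma, with 5 at an unadjusted p under 0.05.

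Night-fed livers of the Tsc1 and Raptor knockouts had rhythmic factors too. TSKO livers had 21 rhythmic members (background 24.3%) and RPKO livers 21 (background 17.6%), beside 25 in Albumin-Cre; 16 and 18 were shared with Albumin-Cre. The median amplitudes were 0.22, 0.29 and 0.31, and for all genes 0.20, 0.19 and 0.20. Tested against Albumin-Cre, the rhythm differed in 0 members in TSKO by limma and by edgeR (background 0.00815%; 8 at an unadjusted p under 0.05), and in 0 in RPKO (background 0.0%; 1 unadjusted). The mean peak of the rhythmic members was ZT 14.5 in TSKO, ZT 16.8 in RPKO and ZT 16.2 in Albumin-Cre. Over the members rhythmic in both arms, 4 of 16 peaked later in TSKO and 13 of 18 later in RPKO, each within 3 h. With each replicate number left out in turn, 6 to 12 members were rhythmic in TSKO, 6 to 10 in RPKO and 11 to 19 in Albumin-Cre.

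**Figure D5:**
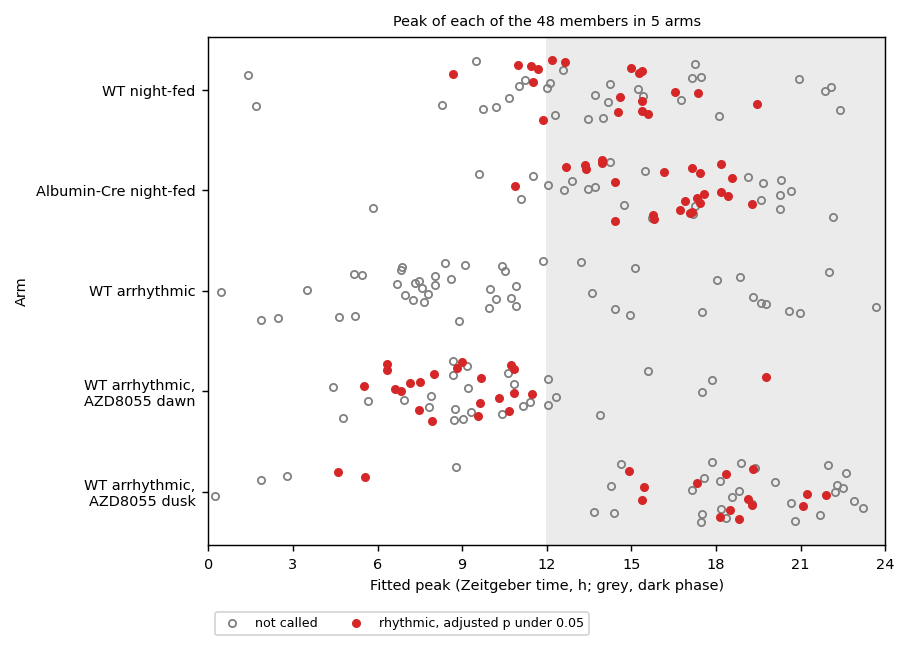
Fitted peak time in hours of zeitgeber time of the members, by arm; filled points are members called rhythmic. In the dawn and dusk AZD8055 arms the rhythmic members peaked at opposite parts of the day, with means of ZT 8.69 and ZT 18.8. The night-fed arms lie between.

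Daily means differed from Albumin-Cre in both directions. In TSKO 4 were higher and 13 lower (background 18.7% and 17.9%). Heatr1 (chr13:12395027-12440289, plus strand), a processome subunit that also aids polymerase I transcription, rose by 0.58 ± 0.07 (adjusted p = 9.7e-09), from 10.3, 13.5 and 17.4 RPM to 15.7, 20.6 and 26.4 RPM. Those ranges overlap only between 15.7 and 17.4 RPM. Pwp1 rose by 0.42 ± 0.08, Dcaf13 by 0.27 ± 0.05 and Nip7 by 0.31. Mybbp1a fell by 0.45, from 14.2, 19.4 and 27.6 RPM to 9.50, 14.9 and 18.7 RPM, Mrto4 by 0.55, Imp3 by 0.24 and Dkc1 by 0.24. The count of lower members was 5 without replicate 1 and 6 without replicate 3.

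In RPKO 7 were higher and 12 lower (background 19.4% and 23.1%), against 2 and 28 under the deposited scaling, which put the median of all genes 0.23 lower. Without replicate 2 the split turned, to 8 higher and 6 lower. The helicase Ddx18 (chr1:121553835-121567989, minus strand) rose by 0.79 ± 0.09 (adjusted p = 4e-10), from 8.31, 12.8 and 19.0 RPM to 12.8, 23.7 and 32.6 RPM. Wdr43, a processome subunit, rose by 0.31 ± 0.06, Rrp1b by 0.41 ± 0.09 and Nob1 by 0.60 ± 0.15. Rrs1 fell by 0.77, from 9.67, 23.4 and 51.1 RPM to 8.37, 12.4 and 23.6 RPM, Ltv1 by 0.52, Noc4l by 0.53 and Dkc1 by 0.29. Both comparisons use the same Albumin-Cre libraries.

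Arrhythmically fed livers with AZD8055 had rhythmic factors, and the peaks lay at opposite parts of the day with dawn and dusk injection. With the inhibitor at dawn 22 members were rhythmic (background 21%), and with it at dusk 16 (background 19.5%), where the arrhythmic control had 0. The median amplitudes were 0.29 and 0.25, beside 0.21 for all genes in each arm. At dawn the mean over the 48 members was highest at ZT 10 (4.13 to 4.28 on the log2 scale), and at dusk it was highest at ZT 18 (4.14 to 4.38). Of all 48 fitted peaks, 36 lay between ZT 6 and ZT 12 with dawn injection, and 29 lay between ZT 18 and ZT 24 with dusk injection. The share of all genes that peaked at these times was not computed. The 10 members rhythmic in both arms peaked 8.48 to 11 h later with dusk injection, with a mean of 9.66 h. Leaving out each replicate number in turn gave 6 to 15 rhythmic members at dawn and 4 to 6 at dusk.

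The direct test between dusk and dawn injection called a rhythm difference in 33 of 48 members, beside 41.6% of all genes. Rrp1b (chr17:32036100-32062865, plus strand), a nucleolar large subunit factor, had the smallest adjusted p (2.5e-09), with peaks at ZT 18.5 and ZT 7.5 and amplitudes of 0.57 and 0.61. At ZT 6 it was at 17.1, 16.6 and 16.9 RPM after dawn injection, 4.86, 5.09 and 7.77 RPM after dusk injection and 5.65, 4.86 and 6.68 RPM in the control. At ZT 18 the order was turned: 6.52, 5.01 and 6.96 RPM at dawn, 14.9, 14.7 and 20.3 RPM at dusk, and 6.29, 6.02 and 5.43 RPM in the control. At each of these times 1 arm was above the other arms in every library.

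Gnl3 peaked at ZT 14.9 and ZT 6.3, with 33.5, 28.6 and 38.9 RPM at ZT 6 after dusk injection and 63.2, 64.5 and 73.3 RPM after dawn injection. Heatr1 peaked at ZT 20.1 and ZT 7.5, and at ZT 6 was at 68.1, 39.9 and 43.4 RPM after dawn injection and 13.1, 16.5 and 16.2 RPM in the control. Tsr1 peaked at ZT 19.2 and ZT 10.3, with 26.0, 21.2 and 30.6 RPM at ZT 18 after dusk injection and 9.68, 10.8 and 13.4 RPM after dawn injection. None of these pairs overlapped. Without a replicate number the count was 18 to 30.

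Dkc1 went the other way. It peaked at ZT 5.5 with dusk injection and at ZT 19.8 with dawn injection, so its high point came when that of most members was low. At ZT 6 it was at 16.8, 20.7 and 16.9 RPM after dawn injection, 32.9, 25 and 31.9 RPM after dusk injection and 29.9, 44.1 and 39.4 RPM in the control. Every library after dawn injection was below the others at that time. The gene Mpp1 lies on the other strand over the last exon bases of Dkc1, so its reads may be mixed.

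Against the arrhythmic control, which both AZD8055 arms share, the rhythm differed in 9 members at dawn (background 14.7%) and 6 at dusk (background 5.74%). At dawn these were led by Dkc1, Rrp1b, Nop58 and Heatr1, with amplitudes of 0.28, 0.61, 0.64 and 0.73 after injection and 0.18, 0.07, 0.06 and 0.12 in the control. At dusk they were led by Wdr43 (0.35 against 0.17), Bysl (0.40 against 0.16), Rrp1b (0.57 against 0.07) and Gnl3 (0.37 against 0.20). Leaving out each replicate number in turn gave 1 to 9 and 0 to 2 calls. The control was not injected, so the act of injection and the inhibitor cannot be told apart, while dawn and dusk injection can be compared with each other.

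Daily means were higher in more members than lower with AZD8055: 13 and 6 at dawn (background 20.9% and 20.2%) and 20 and 5 at dusk (background 26.8% and 23.9%). Under the deposited scaling they were 18 and 4 at dawn and 27 and 3 at dusk. Without replicate 1 the lower count was 3 at dawn and 2 at dusk, and without replicate 3 it was 3 at dusk. Polr1b (chr2:129100995-129126594, plus strand) rose by 0.58 ± 0.10 at dawn and by 0.91 ± 0.10 at dusk, from 2.50, 3.68 and 5.76 RPM to 3.33, 5.76 and 12.1 RPM and to 5.33, 7.62 and 11.2 RPM. Heatr1 rose by 0.66 ± 0.11 at dawn, Rrp1b by 0.53 ± 0.09 and Rrp9 by 0.52 ± 0.10. At dusk Rrn3, which lets polymerase I start, rose by 0.50 ± 0.07, Nop2 by 0.80 ± 0.11 and Bop1 by 0.53 ± 0.08.

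Among the lower members, Npm1 fell by 0.47 at dawn and by 0.49 at dusk, from 71.6, 150 and 170 RPM to 79.4, 101 and 132 RPM and to 82.3, 100 and 133 RPM. Dkc1 fell by 0.40 in each, Gnl3 by 0.30 and 0.32, and Nop14, a processome member, by 0.40 and 0.24. Between dusk and dawn injection 4 members differed in daily mean, all higher at dusk (background 1.95% higher and 2.05% lower), and 0 without replicate 1: Rrn3, Imp4, Bop1 and Rrp1.

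Most factors had higher levels in the tunicamycin table. The tables were normalized separately, so levels are set side by side with no test. Over all libraries 41 of 48 members had a higher mean in the tunicamycin table than in the first. So did 5401 of the 11907 genes tested in both. The median log2 ratio was 0.56 for the members, beside -0.06 for all these genes. The ratio was over 2-fold in 13 members (27.1%), beside 6.59% of genes. Nop58 averaged 31.6 RPM in the first table and 141 RPM in the tunicamycin table, Gnl3 42.6 and 134 RPM, Gar1 7.7 and 28.6 RPM, and Ppan, a large subunit factor, 8.1 and 28.3 RPM.

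At the times that both tables hold, ZT 10 and ZT 22, the same feeding could be set beside itself. In night-fed WT every tunicamycin library was above every untreated one in 24 of 48 members at ZT 10 and 34 at ZT 22, and in 1 member each every library was below. The share of all genes that lay above in this way was 22.4% and 22.8%, and the share below was 19.8% and 19.7%. In arrhythmically fed WT the counts were 34 and 30, with 22.4% and 20.8% of genes, and with dusk AZD8055 they were 36 and 32, with 20.2% and 23.6%. For Nop58 at ZT 10, night-fed livers were at 144, 91.9, 123 and 105 RPM with tunicamycin and at 20.2, 41.9 and 27.3 RPM without. Tunicamycin, the injection and the sequencing set cannot be told apart here.

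Rhythm was tested in the same way in the tunicamycin arms. Night-fed tunicamycin livers had 11 rhythmic members (background 15.0%), arrhythmically fed ones 0 by limma and by edgeR (background 7.51%; 6 at an unadjusted p under 0.05), and those with dusk AZD8055 9 (background 21.2%). The rhythm differed between feeding patterns in 3 members (background 4.36%): Npm1, Tsr1 and Rrn3. Npm1 had an amplitude of 0.06 under arrhythmic and 0.41 under night feeding (adjusted p = 0.016). In night-fed livers it was at 94.0, 85.5, 103 and 104 RPM at ZT 4 and at 166, 152, 186 and 164 RPM at ZT 16, which do not overlap. Arrhythmically fed livers were at 116, 118, 141 and 120 RPM and then 156, 94.2, 103 and 110 RPM, which do.

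Tsr1 had 0.06 against 0.39 (adjusted p = 0.03) and Rrn3 (chr16:13780708-13814839, plus strand) 0.04 against 0.42 (adjusted p = 0.032). Rrn3 in night-fed livers was at 14.5, 11.1, 8.84 and 15.5 RPM at ZT 4 and at 22.9, 15.5, 24.0 and 28.6 RPM at ZT 16. The lowest of the ZT 16 values, 15.5 RPM, came from replicate 2 and met the highest of ZT 4. Without that library 6 members passed, and leaving out each replicate number in turn gave 0 to 2. Daily means differed in 0 members between the feeding patterns by limma and by edgeR, with 3 at an unadjusted p under 0.05 (background 0.245% higher and 0.31% lower).

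With dusk AZD8055 and tunicamycin, against tunicamycin and arrhythmic feeding alone, 2 members, Npm1 and Tsr1, had a higher daily mean, each by 0.25. The background was 4.19% higher and 4.67% lower. Tsr1 at ZT 22 was at 56.9, 58.4, 60.04 and 58.5 RPM with AZD8055 and at 41.4, 38.6, 44.6 and 34.3 RPM without, with no overlap. The count was 1 without replicate 1 or 2 and 0 without replicate 3 or 4. The rhythm differed in 0 members by limma and by edgeR, with 2 at an unadjusted p under 0.05. Npm1, which fell under AZD8055 without tunicamycin, did so against another control and in another table, and the 2 effects were not tested against each other.

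Across the 16 comparisons some members had calls of 1 sign. Ncl was higher in 7 and lower in 0, Ddx21 higher in 6 and lower in 0, and Heatr1 higher in 5 and lower in 0, where many of these comparisons share libraries. Npm1 was higher in 6 and lower in 5, and Rrs1 higher in 2 and lower in 6. Nolc1 and Tsr1 were rhythmic in 10 of the 16 arms and 6 members in 9 or more. Nop10, Pwp2, Imp4, Noc3l and Rrp1 were rhythmic in none. How often other genes reached such counts of arms or comparisons was not computed.

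A list of 87 other ribosome biogenesis factors, of which 86 were tested, was described in the same way. It had 15 rhythmic genes in night-fed WT (17.4%, background 21.8%), 3 under arrhythmic feeding (3.49%, background 7.95%) and 2 with rapamycin in WT (2.33%, background 5.09%), each share below that of all genes. With dawn AZD8055 it had 25 (29.1%, background 21%), with dusk AZD8055 17 (19.8%, background 19.5%), and with rapamycin in BMKO 0 by limma (background 0.274%; 1 at an unadjusted p under 0.05). Under arrhythmic feeding Tcof1, which recruits polymerase I cofactors, rose by 0.60 ± 0.07, Utp18 by 0.69 ± 0.08, Ftsj3 by 0.58 ± 0.07 and Bms1 by 0.45 ± 0.05. Against the same night-fed libraries, ad libitum livers were also higher in Utp18 (0.76), Ftsj3 (0.75) and Bms1 (0.52). With dusk AZD8055 Utp18 fell by 0.78, while Eif6, which keeps large subunits from joining early, rose by 0.79 ± 0.08. The median log2 ratio of the tunicamycin table to the first was 0.56 in that list too. Of 22 tested genes of MYC and of RNA polymerases I and III, 9 were rhythmic in night-fed WT (40.9%, background 21.8%) and 0 by limma under arrhythmic feeding (background 7.95%; 4 at an unadjusted p under 0.05). Polr3g, a subunit of polymerase III, fell by 0.67 in RPKO, by 0.70 with dawn and by 0.68 with dusk AZD8055. The AZD8055 arms share their uninjected control. With rapamycin in WT Polr3g fell by 0.44. The effect of rapamycin on it was more positive in BMKO than in WT, by 0.73 (limma interaction test, adjusted p = 0.0036).

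Reads were counted at 3′ ends, and 9 members have a gene on the other strand over their last 500 exon bases: Mybbp1a, Nop56, Dkc1, Nhp2, Heatr1, Bysl, Tsr1, Bop1 and Noc2l. The library kit keeps strand, but whether the counting used it is not given in the sources used here, so values of these 9 are uncertain to that extent.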

How the data were processed

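The data are 282 mouse liver libraries made with the Lexogen QuantSeq 3′ kit, per the labels. STAR 2.7.3a, SAMtools and the builds mm10 and GRCm38.p6 are named in the submitters' processing notes. How reads were counted, and on which annotation, was not given in the sources used here. Values, as deposited, are signal: read counts that the authors divided by a factor per library, in 2 separately normalized tables. The steps between values gave whole reads for 100% of values above 0 within 0.01 read; RPKO libraries, where 197 genes and no member were off the common step, were left out of that share, and those genes out of every fit with RPKO. Reads were rescaled to RPM with edgeR 4.0.16 TMM factors.

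Tests took genes whose mean reached 1 RPM in a set, and ran on log2(RPM + 0.5) with limma 3.58.1 in R 4.3.3: a mean per arm and time for daily means, a 24 h cosine and sine for rhythm, and their difference between arms for rhythm differences, with Benjamini-Hochberg adjustment over all genes and a threshold of 0.05. TSKO, RPKO and Albumin-Cre were fitted as a set of 12266 genes. A library contributes 1 value per gene, so precision at low levels is set by depth, 0.706 to 14.3 M reads. The SE comes from the spread between replicate libraries, which includes counting error, but libraries were not weighted by depth. The whole-read edgeR quasi-likelihood test, other scalings, pseudocount 2, no filter, the replicate block and leaving out replicates or libraries were alternatives.

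Samples were grouped by title. Members, gene lists and tests were chosen with earlier results of these data known. Named with values are the 8 rhythmic members of largest amplitude in night-fed WT, up to 4 called members of smallest adjusted p per direction and comparison, the highest and lowest of each role, those with the most calls of 1 sign, and, of other lists, up to 4 called genes a comparison; Gnl3, Npm1 and a few more named outside this rule were chosen after their values were seen. Replicate numbers were checked for pairing by the correlation of deviations from group means. Not every pair was over 0.1 in any comparison, so the numbers were not taken to pair livers.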

Additional observations from a re-analysis of the deposited data

Results flagged for a closer look

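In 7 members the effect of rapamycin on the daily mean differed between BMKO and WT in limma's interaction test, a share near that of all genes (7.85% higher and 6.38% lower). The effect in BMKO minus the effect in WT, on the log2 scale, was 0.71 for Npm1, 0.44 for Gnl3, 0.44 for Dkc1, 0.41 for Wdr12 and 0.44 for Ddx21, and -0.58 for Nop2 and -1.10 for Gar1. The adjusted p-values ran from 0.0012 for Npm1 to 0.047 for Gar1. Npm1 fell by 0.29 in WT and rose by 0.42 in BMKO. Without replicate 1 no member passed in limma, with 5 at an unadjusted p under 0.05. In the 12 tunicamycin groups of 4 livers no liver stood apart from its group in the mean level of the 48 members.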

How the results depend on the processing

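Of 130 differences and rhythms of named genes past the threshold, pseudocount 2 and the replicate block lost 0. Median-of-ratios scaling lost 1, edgeR 2, no filter 2 and the deposited scaling 4. Without replicate 1, 2 or 3 the losses were 36, 30 and 40. Without replicate 4, which only the tunicamycin arms have, 5 were lost and 0 kept. Direction reversed in 3 others, each without replicate 1. With single replicates left out, the amplitude difference of Rrp9 between uninjected BMKO and WT ran from -0.35 to 0.018, and under rapamycin in WT the daily mean difference of Dkc1 ran from -0.42 to 0.0041 and that of Nop58 from -0.54 to 0.0075. Under the authors' deposited scaling 41 members differed in daily mean between BMKO and WT with vehicle and 30 between RPKO and Albumin-Cre, where the main values are 6 and 19; the causes were not tested. edgeR called 5 rhythm differences between rapamycin and vehicle in BMKO (main value 3), as did the fit without the libraries under 3 M reads. Without the doubted libraries, chosen after seeing the data, ad libitum livers had 13 rhythmic members and arrhythmic against night feeding had 8 rhythm differences, and under tunicamycin that comparison had 6.

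With the replicate number as a block, calls were 8 for the rhythm difference of arrhythmic and night feeding, 2 for that of uninjected BMKO and WT, 27 rhythmic members in vehicle BMKO, 2 in arrhythmically fed tunicamycin livers and 4 daily means with AZD8055 under tunicamycin; it moved no other count by over 1.5 times. In no comparison was every same-number pair between arms over 0.1, but livers of 1 number went together in some. For rapamycin against vehicle in BMKO the median correlation was 0.16 for the same number and -0.13 for other numbers. Of its 18 same-number pairs, 11 were over 0.1. For ad libitum against night feeding the medians were 0.11 and -0.063, with 10 of 18 pairs over 0.1. Within arms livers of 1 number also went together across times in some. The median correlation of their deviations was 0.48 in vehicle BMKO (45 pairs, lowest 0.077), 0.24 in BMKO with rapamycin and 0.21 in uninjected WT.

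Leaving out each replicate number in turn, daily mean calls ranged from 1 to 11 for BMKO and WT with vehicle, 12 to 18 for vehicle in WT, 5 to 8 for rapamycin in WT, 2 to 4 for rapamycin in BMKO, 0 to 7 for the difference of these effects, 9 to 13 for TSKO, 13 to 15 for RPKO, 19 to 21 for ad libitum feeding, 0 to 1 for dusk against dawn AZD8055, and 0 to 1 for AZD8055 under tunicamycin. Rhythm differences ranged from 1 to 3 for arrhythmic feeding, 0 to 2 for uninjected BMKO, 0 to 1 for rapamycin in BMKO, 1 to 9 for dawn AZD8055, 0 to 2 for dusk AZD8055, 18 to 30 for dusk against dawn, and 0 to 2 for feeding under tunicamycin. Rhythmic members ranged from 7 to 15 in uninjected WT, 3 to 3 in vehicle WT, 0 to 1 in rapamycin WT, 0 to 5 in uninjected BMKO, 0 to 21 in vehicle BMKO, 0 to 8 in ad libitum WT, 6 to 15 with dawn and 4 to 6 with dusk AZD8055, 11 to 19 in Albumin-Cre, 6 to 12 in TSKO, 6 to 10 in RPKO, 1 to 13 in night-fed tunicamycin livers and 3 to 5 with AZD8055 and tunicamycin. These fits have 2 livers per time, or 3 with tunicamycin, and fewer residual degrees of freedom. Low members such as Nob1, Rrp12 and Rrp9, near 3 RPM, rest on few reads.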
